A study of Arabidopsis thaliana with 26 samples.

Results

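The genes described here had far more transcript in mature leaves than in developing leaves of Arabidopsis thaliana. They were chosen from the measurements themselves. A gene was taken when the mean level of its probe set in mature leaves was at least 7 on the log2(signal + 4) scale and at least 2 above the mean of every group of developing leaves. A probe set is the group of array probes that reports 1 transcript, and signal is its summarised brightness. Of 22746 probe sets other than array controls, 171 passed both limits. Of these, 76 were annotated to 1 gene, 6 to several genes and 89 to none. Leaving out 10 genes by name gave 66 members, of 13350 genes that 13513 probe sets name alone. Because the excess in mature leaves chose the members, it is given as a description without a test, and only changes among developing leaves were tested.

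The study asked how light and CO2 sensed by some leaves affect others, and the 26 arrays used here are its plants under ambient CO2 and ambient light. All samples were wild-type Col-0 leaves from a growth room with a 10 h light period, and total RNA was hybridised to ATH1 arrays. Developing leaves of insertions 19 to 21 were sampled at 2, 4, 12, 24, 48 and 96 h, and each of these 6 times has 4 arrays. Mature leaves were sampled once, at 24 h, and have 2 arrays. The labels do not say whether replicates came from separate plants, so the errors and p-values measure the spread between arrays, which may be technical. The 24, 48 and 96 h samples lie whole days apart, whereas 2, 4 and 12 h fall at other hours of the day.

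A young leaf begins as a sink that imports sugar and nitrogen, and becomes a source that exports them as it matures. In older source leaves, amino acids and other nutrients are taken apart and sent to growing organs. Mature leaves also tend to hold higher levels of defence transcripts, under control of the hormones salicylate and jasmonate. In whole leaves, a lower transcript level from fewer cells of a type and from less RNA per cell cannot be told apart.

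Array-wide median signals lay between 40.7 and 47.0. At 24 h, developing arrays 1 and 4 had the lowest mean correlation with their own group, at 0.965 and 0.970, against 0.973 to 0.983 for the other developing arrays. The log2 ratio of the actin 3′ to 5′ control probe sets, a measure of RNA and labelling quality, was 2.43 to 2.77 at 2 h and 1.80 to 2.62 at 12 h. It was 1.71 to 2.60 at 24 h, 1.22 to 2.28 at 96 h, and 1.99 and 1.20 on the mature arrays. The photosynthesis genes LHCB4.1, RCA and PSAE-1, the 3 measured of a list of 22, had group means between 11.58 and 12.47 at 24 h, 96 h and in mature leaves, as in green leaf. The cell-division kinases AUR1 and AUR2 had mean levels of 7.30 and 6.26 in developing leaves at 24 h and of 5.40 and 4.53 in mature leaves.

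The smallest margin of a mature mean over the highest developing mean was 2.02, the median was 2.45 and the largest was 4.18. As ratios of signal + 4, these margins were 4.05-fold, 5.48-fold and 18.1-fold. In all 66 members the lower mature array lay above the highest of the 24 developing arrays, with a smallest gap of 1.17 and a median gap of 1.86. The rule used these same values, so the gaps describe the choice of members and are no separate result. The median level over the members was 4.70 to 5.46 on arrays of 2 to 48 h, 5.44 to 5.84 at 96 h, and 8.18 and 8.27 on the mature arrays. The median over all probe sets was 5.48 to 5.67 on every array.

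**Figure D1:**
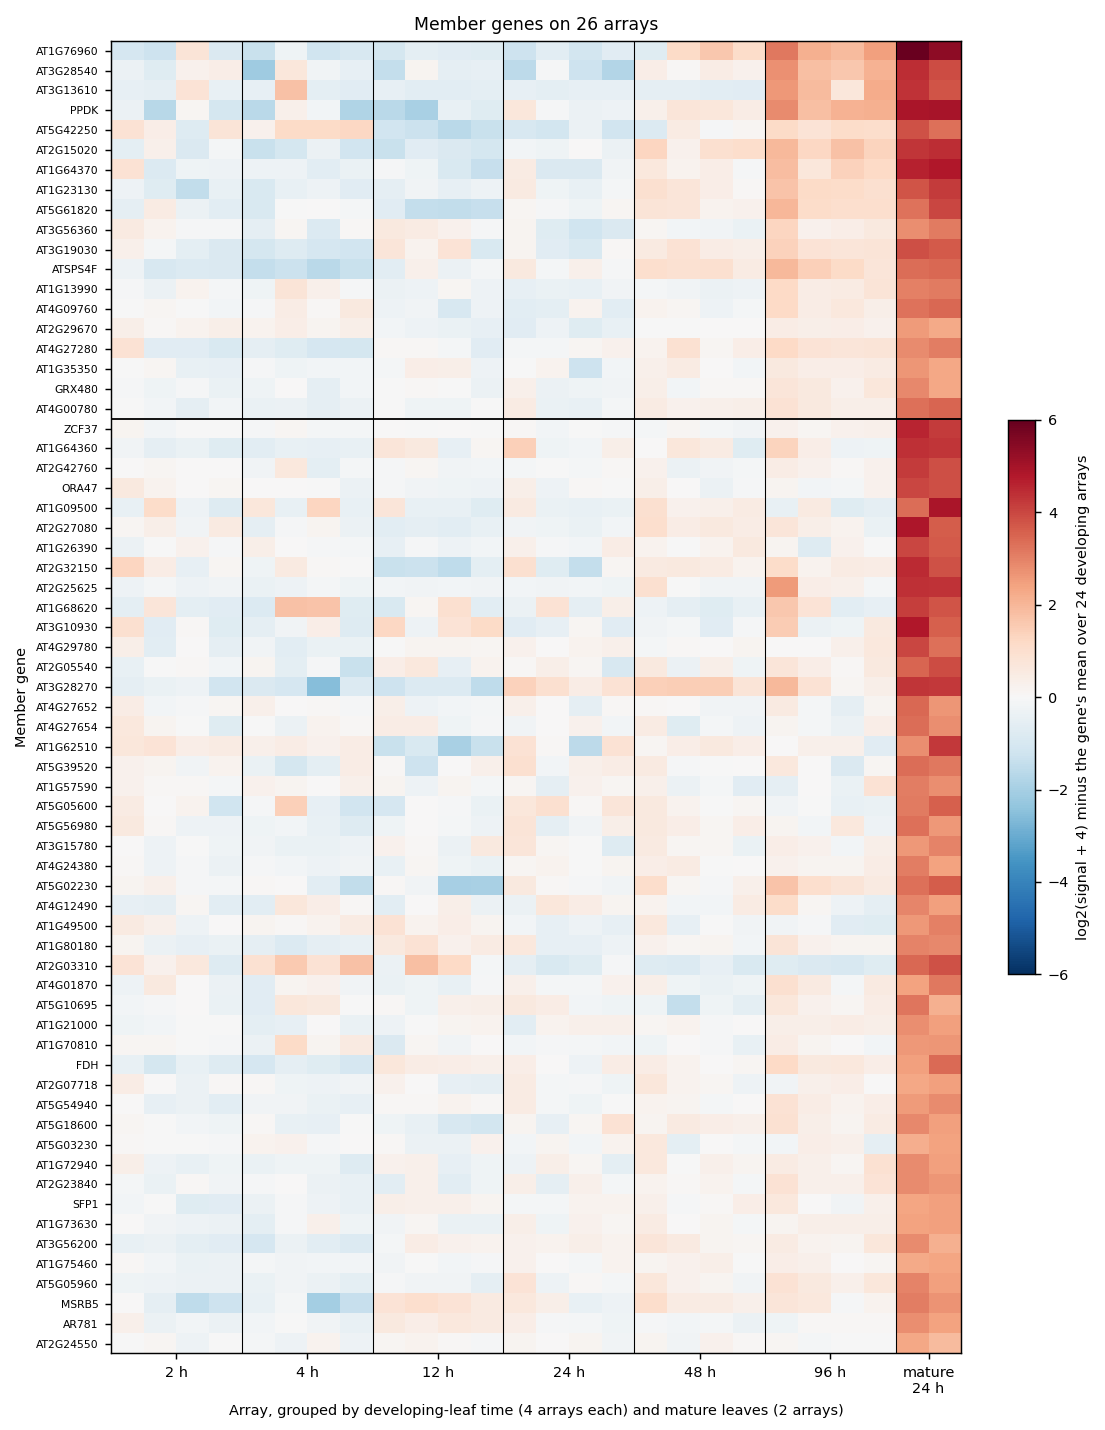
Each row is 1 of the 66 members and each column 1 of the 26 arrays, and colour gives the log2(signal + 4) level minus that member's mean over the 24 developing arrays; the horizontal line parts the 19 members that rose from 24 to 96 h (top) from the rest. The mature arrays at the right are red throughout, and the top rows are also red at 96 h.

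ZCF37 had the largest margin. Its levels ran from 2.60 to 3.11 over the developing arrays, with a median of 2.79, and were 7.40 and 7.04 on the mature arrays. Developing signals of 2.04 to 4.61 are at the floor of these arrays, so the pseudocount of 4 sets the size of its 18.1-fold margin. In 12 members, ZCF37 among them, the median signal over the 24 developing arrays was under 10, and in 18 members the median was under 10 in at least 1 developing time.

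ORA47 encodes a transcription factor of the AP2/ERF family that activates jasmonate synthesis genes. Unlike ZCF37, it had measurable signal in developing leaves, with levels of 4.93 to 5.89, a median of 5.28, and mature levels of 9.30 and 9.18. Its margin was 3.70, or 13.0-fold. AT2G42760 lay close to it, at 4.82 to 6.06 in developing leaves and at 9.61 and 9.28 in mature leaves, a margin of 3.77. For both genes the developing means stayed within 0.5 of each other from 2 to 96 h, as they did for 11 of the 66 members.

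AT1G64360 and AT1G64370 are next to each other in the genome, and both passed the rule. AT1G64360 had developing levels of 2.41 to 4.56 and mature levels of 7.52 and 7.43. AT1G64370 had developing levels of 3.56 to 6.81 and mature levels of 9.57 and 9.78. Another adjacent pair was AT4G27652 and AT4G27654, with margins of 2.96 and 2.93. AT4G27652 was at 4.42 to 5.49 in developing leaves and at 8.40 and 7.57 in mature leaves, and AT4G27654 at 3.86 to 5.24 and at 7.95 and 7.39. The genome order was taken from RefSeq's TAIR10.1 annotation, in which 65 of the 66 members were found.

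**Figure D2:**
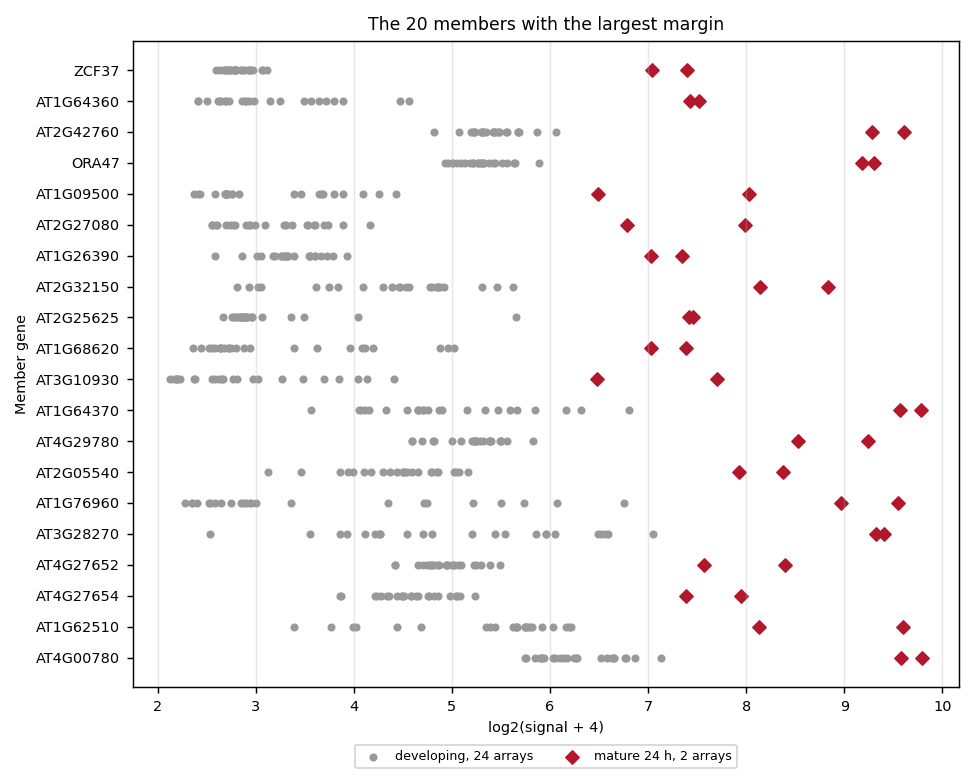
The 20 members with the largest margin are shown by their log2(signal + 4) level, with grey points for the 24 developing arrays and red diamonds for the 2 mature arrays. In every row both diamonds lie to the right of all grey points, and for AT1G76960 and AT3G28270 the grey points spread over more than 4 units.

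Among the other members of the 20 with the largest margin, the margins were 3.61 for AT1G09500, 3.60 for AT2G27080 and AT1G26390, 3.58 for AT2G32150, 3.57 for AT2G25625 and 3.48 for AT1G68620. Next came AT3G10930 at 3.47, AT4G29780 at 3.44, AT2G05540 at 3.26, AT1G76960 at 3.25, AT3G28270 at 2.98, AT1G62510 at 2.93 and AT4G00780 at 2.87. By the mean of both mature arrays, these 13 and the 7 described above were at least 7.29-fold higher in signal + 4 than the highest developing mean. By the lower mature array alone, the ratio was 4.56-fold for AT1G62510, 7.18-fold for AT1G09500, 7.28-fold for AT3G10930 and 7.99-fold for AT2G27080, against 7.61-fold, 12.2-fold, 11.1-fold and 12.2-fold by the mean. The last 3 of these 4 were under the level of 7 on that array. For AT4G27652, AT4G27654 and AT4G00780 the ratio by the lower mature array was 5.84-fold, 6.31-fold and 6.79-fold. Mature levels on arrays 1 and 2 were 8.83 and 8.14 for AT2G32150, 9.24 and 8.53 for AT4G29780, and 7.93 and 8.37 for AT2G05540. They were 7.35 and 7.03 for AT1G26390, 7.46 and 7.42 for AT2G25625, 7.39 and 7.03 for AT1G68620, 9.40 and 9.32 for AT3G28270, and 9.58 and 9.79 for AT4G00780.

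At the edge of the rule, AT2G24550, AT1G35350, AT4G27280, AT2G29670 and GRX480 had the smallest margins, of 2.02 to 2.05. The nearest genes left out were AT5G59540, ARD4, AT1G24140, AT5G45350 and PUB19, with margins of 1.97 to 1.998. Another 44 probe sets of 1 gene had the margin but a mature mean under 7, and 1 of them reached 6.9.

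Genes of known metabolic role were found among the members. PPDK encodes pyruvate orthophosphate dikinase, which interconverts pyruvate and phosphoenolpyruvate and is known for moving nitrogen out of ageing leaves. ATSPS4F encodes a sucrose phosphate synthase, an enzyme of sucrose synthesis, FDH the mitochondrial formate dehydrogenase, and SFP1 a sugar transporter-like protein. MSRB5 encodes a methionine sulfoxide reductase, which repairs oxidised methionine in proteins. The mature levels were 9.46 and 9.48 for PPDK, 8.76 and 8.87 for ATSPS4F, 9.46 and 10.36 for FDH, 8.49 and 8.60 for SFP1, and 9.04 and 8.66 for MSRB5. Their margins lay between 2.07 for MSRB5 and 2.72 for PPDK, and all 5 differed among the developing times.

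GRX480 and AT3G13610 are members with a known part in defence. They are no full list, because the array annotation gives most members only a locus name and no role. GRX480 encodes a glutaredoxin that binds TGA transcription factors and links salicylate to jasmonate signalling. AT3G13610, which RefSeq lists as F6'H1, encodes the hydroxylase that makes the precursor of scopoletin, an antimicrobial coumarin. The mature levels were 8.16 and 7.61 for GRX480 and 7.38 and 6.83 for AT3G13610.

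Within developing leaves, the members were not uniform in time. By limma's F-test over the 6 times, 40 of the 66 differed at an adjusted p under 0.05, against 40.6% of all 22746 probe sets and 73.1% of the 5308 with a mature mean of at least 7. Their share of 60.6% lies between these backgrounds, so it says nothing particular about the members. The highest developing mean was at 96 h for 39 members. The lowest was at 4 h for 23 and at 12 h for 21. These extremes were not counted over all probe sets, so the counts are not read as a trait of the members. The ranges of the 6 means were largest for PPDK (3.39), AT1G76960 (3.34), AT3G28540 (3.21), ATSPS4F (2.74), AT3G28270 (2.60) and AT2G15020 (2.54). In the 26 members not called, the range of means was 0.17 to 1.16, with a median of 0.625, and ZCF37, ORA47 and AT2G42760 were among them. Of these 26, 23 were not called in any comparison of times either. ORA47, AT3G10930 and AT1G35350 missed the F-test (adjusted p = 0.27, 0.138 and 0.0679) but were called in a comparison of times below.

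Late in the series, some of the members rose. Between 24 and 96 h, 19 of the 66 members rose and none fell at an adjusted p under 0.05. Over all probe sets, 5.1% rose and 4.68% fell, so the 28.8% of members that rose is above the background. Among the 5308 probe sets with a mature mean of at least 7, 14.9% rose and 6.73% fell, and the members' share is above that too. The median change of the members was 0.33 on the log2 scale, against -0.02 for all probe sets, and 53 of the 66 changes were above 0. In 21 members all 4 arrays of 96 h lay above all 4 of 24 h, and in 1 member all lay below. The same held for 6.17% and 6.15% of all probe sets. Of the 19 members that rose, 6 were also called between 2 and 12 h or between 12 and 24 h. Over all 66 members 23 were called in either comparison. Taken singly, the comparisons called 23.7% and 24.0% of all probe sets, so the 6 are not read as a trait of the rising members.

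AT1G76960 rose most. Its levels were 2.35, 2.95, 2.52 and 2.90 at 24 h, 2.88, 4.75, 5.21 and 4.72 at 48 h, and 6.75, 5.73, 5.50 and 6.07 at 96 h. The groups of 24 and 96 h did not overlap, and every 96 h array was still below the mature levels of 9.55 and 8.97. The rise was 3.33 ± 0.42 (SE, n = 4 against 4), or 10.1-fold, with an adjusted p of 1.25e-05. Its 24 h signals of 1.10 to 3.74 were at the floor, and the rise was 4.21 with a pseudocount of 1 and 2.06 with 16.

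AT3G28540 followed, with levels of 2.79, 4.27, 3.13 and 2.61 at 24 h and of 7.08, 6.17, 5.95 and 6.45 at 96 h. All 96 h arrays were higher than all 24 h arrays, and the rise was 3.21 ± 0.44 (adjusted p = 3.54e-05). It was 3.82 and 2.17 with pseudocounts of 1 and 16.

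The coumarin gene AT3G13610 was at the floor at 24 h, with levels of 2.57, 2.46, 2.56 and 2.57, and had levels of 5.65, 4.96, 3.73 and 5.28 at 96 h. It was at the floor at 12 and 48 h too, on all 8 arrays, and 1 array of 2 h and 1 of 4 h stood above the rest at 3.86 and 4.79. The rise from 24 to 96 h was 2.36 ± 0.41 (adjusted p = 4.91e-04). It was 3.23 and 1.27 with pseudocounts of 1 and 16.

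PPDK had levels of 5.24, 4.47, 4.21 and 4.25 at 24 h, of 4.84, 5.28, 5.23 and 4.97 at 48 h, and of 7.37, 6.35, 6.61 and 6.68 at 96 h. The 96 h arrays lay between those of the earlier times and the mature arrays, without overlap with either. The rise was 2.21 ± 0.42, or 4.63-fold (adjusted p = 0.00121).

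The mean level of ATSPS4F was lowest at 4 h and highest at 96 h. It was 4.68 ± 0.31 (SD over 4 arrays) at 2 h, 4.00 ± 0.13 at 4 h and 5.23 ± 0.40 at 12 h. The later means were 5.58 ± 0.34 at 24 h, 6.27 ± 0.24 at 48 h and 6.73 ± 0.51 at 96 h. Of the 5 comparisons of times, the rise from 24 to 96 h alone was called, and the smallest adjusted p of the other 4 was 0.0812, for 12 against 2 h. The 96 h arrays were at 7.37, 6.82, 6.58 and 6.16, all above the 24 h arrays at 6.01, 5.28, 5.70 and 5.33. The rise from 24 to 96 h was 1.15 ± 0.22, or 2.22-fold (adjusted p = 0.00141).

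AT5G42250 and AT2G15020 rose by 1.92 ± 0.31 (adjusted p = 2.22e-04) and 1.74 ± 0.26 (adjusted p = 7.92e-05). AT5G42250 had levels of 3.32, 3.18, 3.91 and 3.13 at 24 h and of 5.43, 5.07, 5.39 and 5.34 at 96 h. AT2G15020 had levels of 3.35, 3.28, 3.56 and 3.19 at 24 h and of 5.45, 4.75, 5.26 and 4.88 at 96 h. Neither gene's groups overlapped. With a pseudocount of 16 the rises were 1.19 and 1.05. The 4 h mean of AT5G42250, at 5.21, was already near its 96 h mean of 5.31.

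**Figure D3:**
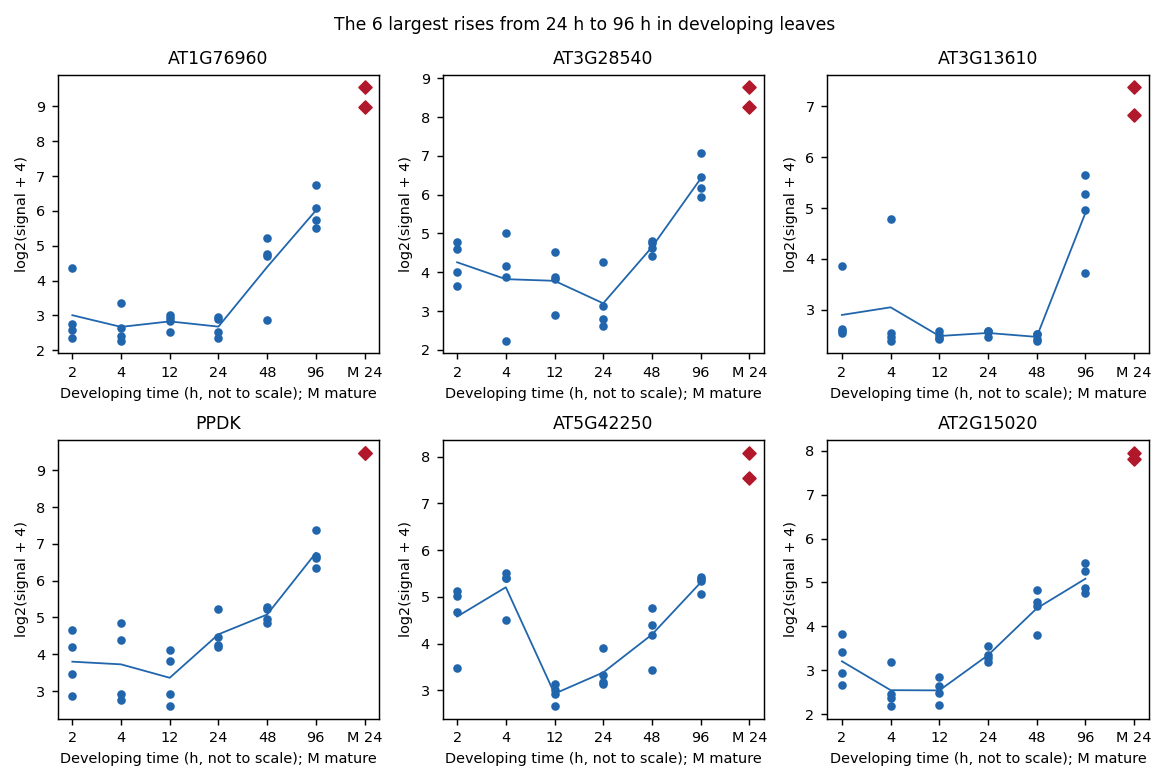
The 6 members with the largest rise from 24 to 96 h are shown by log2(signal + 4) level against time, with blue points for single developing arrays, a line through the means and red diamonds for the mature arrays. In each panel the 96 h points lie above the 24 h points and below both diamonds.

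The smallest standard error belonged to AT2G29670, whose levels were 6.32, 6.69, 6.25 and 6.56 at 24 h, 6.95 to 7.01 at 48 h, and 7.43, 7.34, 7.40 and 7.22 at 96 h. The 3 groups did not overlap. It rose by 0.89 ± 0.10 from 24 to 96 h (adjusted p = 1.97e-06). Its means at 2 and 4 h, of 7.23 and 7.26, were already near the 96 h mean of 7.35.

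GRX480 rose by 0.68 ± 0.17, or 1.60-fold (adjusted p = 0.0116), from 5.59, 4.90, 5.03 and 5.07 to 5.98, 5.84, 5.54 and 5.95. The groups overlapped, since the highest 24 h array was above the lowest 96 h array. AT4G00780 rose by 0.65 ± 0.15 (adjusted p = 0.00688), also with overlap. AT1G64370 rose by 1.63 ± 0.34 (adjusted p = 0.00235), while for its neighbour AT1G64360 the change was -0.03 ± 0.36 (adjusted p = 0.975). The difference between these neighbours was not tested. The other rises were 1.32 for AT5G61820, 1.30 for AT3G56360, 0.84 for AT4G27280, 0.78 for AT1G35350 and 1.07 to 1.33 for the remaining 4 members. AT3G56360 had means of 7.17 at 12 h, 6.19 at 24 h and 7.48 at 96 h.

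Of the 19 calls, 17 held under every alternative run that tested them. The percentile filter, 1 of these runs, left out the largest rises. They were those of AT1G76960, AT3G28540, AT3G13610, PPDK, AT5G42250 and AT2G15020, so that run did not test them. AT4G27280 (adjusted p = 0.0491) was lost when any 1 of 22 arrays was left out, with an adjusted p of up to 0.152 without 96 h array 1. AT1G35350 (adjusted p = 0.0339) was lost when any 1 of 5 arrays was left out, with an adjusted p of up to 0.155 without 24 h array 3. On 96 h array 1, 46 of the 66 members had their highest level of the 4 arrays, against 21.2% of the other probe sets, and without this array 17 members rose. Array 1 was also the highest of the 4 for 37 of the 66 members at 2 h, 32 of 66 at 24 h and 39 of 66 at 48 h. These are larger shares than the 26.5%, 34.4% and 40.8% of the other probe sets. It was the highest for 13 of the 66 members at 4 h, a smaller share than 26.8%, and for 22 of 66 at 12 h, a larger share than 27.1%. At 4 h, array 2 was the highest for 29 of the 66, against 22.1% of the other probe sets. Without 24 h arrays 1 and 4 together, 23 rose, and with the actin ratio as a covariate 18 rose.

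The members were not the only probe sets with this behaviour. Of the 95 probe sets that passed the same numerical limits but name no gene or several, 31 rose and 1 fell from 24 to 96 h, with a median change of 0.50. Among 4 measured genes of a list of 21 senescence genes, WRKY53, a transcription factor of early leaf senescence, rose by 1.00 (adjusted p = 3.96e-04), and SAG101, WRKY6 and SAG29 did not pass. None of these 4 is a member. Their summed log2 level was 15.3 to 17.38 at 24 h, 17.42 to 17.95 at 96 h and 23.72 to 23.9 in mature leaves. Both measured cell-division genes of a list of 18 fell, AUR1 by 0.46 (adjusted p = 0.00957) and AUR2 by 0.53 (adjusted p = 0.0435), and their summed level was 13.19 to 14.03 at 24 h, 12.01 to 13.09 at 96 h and 9.47 to 10.38 in mature leaves. The part of these markers in the members' rise was not tested. For RNA quality, the only run was that with the actin ratio as a covariate, in which 18 members rose. Its part was not tested otherwise. Of 31 salicylate defence genes, 2 were measured, and both rose. These were GRX480 and UGT76B1, a glycosyltransferase that acts on salicylate and related defence compounds, which rose by 2.74 (adjusted p = 1.97e-06). Of 19 jasmonate response genes, 2 were measured, and neither passed. The change was 0.03 for PDF1.2 (adjusted p = 0.989) and -0.06 for THI2.1 (adjusted p = 0.964), and their mature means of 6.57 and 4.55 were below the 24 h means of 7.51 and 5.52. Other lists held rising genes too. Of 17 rapid touch and wound genes, 5 were measured, and only CML37 passed, with a rise of 0.86 (adjusted p = 0.00251). The median of mature minus 24 h means over these 5 genes was 2.89, without a test. PUB23 went the other way, with means of 4.58 in mature leaves and 5.82 at 24 h. Of 22 abscisate, cold and drought genes, 3 were measured, and only COR15A passed, with a rise of 1.15 (adjusted p = 0.0223). The median of mature minus 24 h means over these 3 genes was 1.07. The lists count only genes named by the array annotation.

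At 48 h few members differed from 24 h. From 24 to 48 h, AT2G29670 was the 1 member called. Of all probe sets, 0.0659% rose and 0.0572% fell, 0.123% in all. It rose by 0.53 ± 0.10 (adjusted p = 0.0267), and the call was lost without 24 h array 1 or 3 or 48 h array 3 or 4. At an unadjusted p under 0.05 there were 11 of the 66 members, a larger share than the 11.6% of all probe sets. The median change of the members was 0.15. This comparison, that of 96 with 24 h and that of 24 with 12 h share the 24 h arrays.

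From 2 to 4 h, 0 members were called by limma. Of all probe sets, 0.739% rose and 0.479% fell, 1.22% in all. At an unadjusted p under 0.05 there were 4 of the 66 members, a smaller share than the 7.89% of all probe sets. The smallest adjusted p of a member was 0.215.

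Between 2 and 12 h the members moved in both directions. Of the 66, 7 rose and 8 fell, which is 10.6% and 12.1%, against 12.5% and 11.2% of all probe sets. Among the 5308 probe sets with a mature mean of at least 7, 25.5% rose and 19.6% fell. The members' shares are near the first background and below the second. The median change of the members was 0.01, against 0.04 for all probe sets.

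MSRB5 rose most, from levels of 5.99, 5.44, 4.46 and 4.75 at 2 h to 6.81, 6.98, 6.82 and 6.50 at 12 h, without overlap. The rise was 1.62 ± 0.34, or 3.08-fold (adjusted p = 8.54e-04). FDH had levels of 6.56, 5.92, 6.54 and 6.20 at 2 h and of 7.66, 7.44, 7.38 and 7.31 at 12 h, a rise of 1.14 ± 0.20 (adjusted p = 7.57e-05). At 24, 48 and 96 h every FDH array was above those of 2 h, and the change from 24 to 96 h was 0.56 ± 0.20 (adjusted p = 0.0718). SFP1 rose by 0.67 ± 0.16 (adjusted p = 0.00324), AR781 by 0.68 ± 0.15 (adjusted p = 0.00105), AT1G80180 by 0.82 ± 0.21 (adjusted p = 0.00401) and AT3G56200 by 0.71 ± 0.16 (adjusted p = 0.00189).

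AT1G62510 fell most, from 6.03, 6.16, 5.74 and 5.82 at 2 h to 3.99, 4.44, 3.39 and 4.02 at 12 h. The groups did not overlap, and the change was -1.98 ± 0.38 (adjusted p = 2.6e-04). AT5G42250 changed by -1.65 ± 0.31 (adjusted p = 2.18e-04), from 5.13, 4.68, 3.48 and 5.03 to 3.13, 3.00, 2.67 and 2.92, and by -0.90 with a pseudocount of 16. AT2G32150 changed by -1.52 ± 0.38 (adjusted p = 0.004), or by -0.87 with a pseudocount of 16. The falls of AT5G61820 (-0.98), AT2G27080 (-0.76), AT5G18600 (-0.60), AT2G29670 (-0.59) and ORA47 (-0.45) were smaller.

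**Figure D4:**
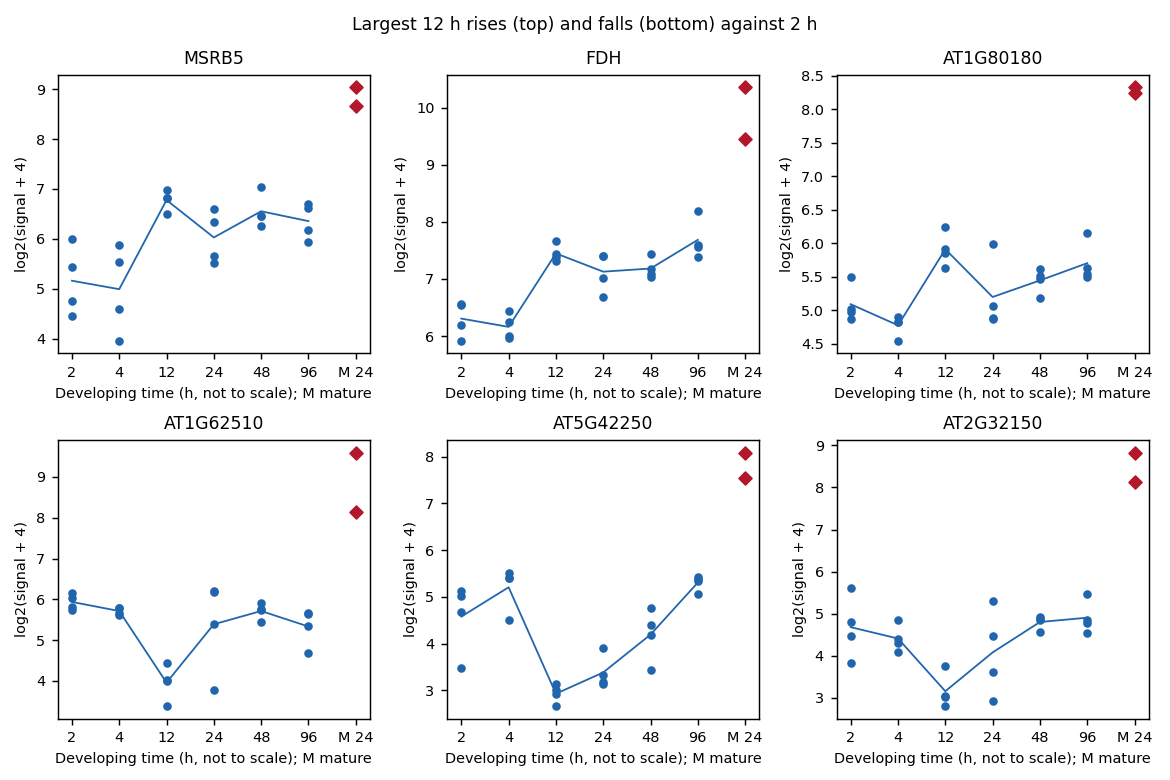
The 3 largest rises (top) and falls (bottom) from 2 to 12 h are shown by log2(signal + 4) level against time, with blue points for single developing arrays, a line through the means and red diamonds for the mature arrays. The 12 h points of MSRB5, FDH and AT1G80180 lie above the 2 h points, and those of AT1G62510, AT5G42250 and AT2G32150 lie below.

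Of these 15 calls, 11 held under every alternative run that tested them. Of these 11, AT2G32150 and AT5G42250 were left out by the percentile filter and so not tested in that run. The call of ORA47 (adjusted p = 0.0415) was lost when any 1 of 6 arrays was left out, with an adjusted p of up to 0.171 without 2 h array 1. That of AT5G18600 (adjusted p = 0.0478) was lost when any 1 of 16 was left out, with an adjusted p of up to 0.176 without 12 h array 4, and its change was -0.31 (adjusted p = 0.335) with the actin ratio as a covariate. AT2G27080 was lost without 2 h array 2 or 4, and AT5G54940, the smallest rise at 0.48, without 2 h array 2 or 4 or 12 h array 3. With the actin ratio as a covariate, 11 members were called.

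From 12 to 24 h, 7 members rose and 6 fell, against 10.9% and 13.1% of all probe sets, shares of 10.6% and 9.1% that are not above the background. Among the probe sets with a mature mean of at least 7, 22.9% rose and 22.0% fell. AT3G28270 rose most, from 3.86, 4.27, 4.26 and 3.55 to 6.49, 6.05, 5.54 and 5.96, by 2.02 ± 0.36, or 4.07-fold (adjusted p = 1.2e-04). It stayed at 5.20 to 7.05 on the 48 and 96 h arrays. AT5G61820 rose by 1.21 ± 0.26 (adjusted p = 0.00113), AT5G18600 by 0.84 ± 0.22 (adjusted p = 0.00521) and AT1G62510 by 1.43 ± 0.38 (adjusted p = 0.00606). These 3 genes were also called lower at 12 than at 2 h, in comparisons that share the 12 h arrays.

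AT1G62510 was at 6.19, 5.39, 3.77 and 6.21 at 24 h, so array 3 lay within the 12 h range. Its change was 0.62 (adjusted p = 0.311) without 24 h arrays 1 and 4, and that of AT5G18600 also missed the threshold there (adjusted p = 0.155). The rises of PPDK (1.18), AT5G02230 (1.12) and AT2G15020 (0.80) had adjusted p-values of 0.0442, 0.0473 and 0.0222, and were lost when any 1 of 9, 18 and 3 arrays, respectively, was left out. AT2G15020 rose by 1.39 with a pseudocount of 1. With 24 h arrays 1 and 4 left out, 2 members rose and 6 fell, and 5 of the 13 calls held under every alternative run.

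The members that fell from 12 to 24 h were AT2G03310 (-1.19 ± 0.37), AT3G10930 (-1.16 ± 0.41), AT3G56360 (-0.98 ± 0.25), AT1G49500 (-0.77 ± 0.20), AT1G80180 (-0.71 ± 0.21) and AR781 (-0.56 ± 0.15). AT1G80180 and AR781 were also called higher at 12 than at 2 h. AT2G03310 stood at 3.38, 5.53, 4.93 and 3.64 at 12 h and at 3.21, 2.81, 3.03 and 3.67 at 24 h, with overlap, and remained at 2.77 to 3.24 on the 48 and 96 h arrays. AT3G10930 was at 4.13, 2.59, 3.70 and 4.04 at 12 h, and its change was -1.91 with a pseudocount of 1 and -0.50 with 16 (adjusted p = 0.0896). These calls were lost when any 1 of 3 arrays was left out for AT2G03310, any 1 of 6 for AT3G10930 and any 1 of 2 for AT1G80180.

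The pair of mature arrays did not give equal values for all members. Of the 66, 38 were higher on array 1 and 28 on array 2. The median absolute difference was 0.36, against 0.21 for the 5308 probe sets with a mature mean of at least 7. A difference of 1 or more was found in 5 members and in 1.47% of those probe sets. AT1G09500 (6.49 and 8.03) and AT1G62510 (8.13 and 9.60) were higher on array 2, and AT3G10930 (7.70 and 6.48), AT2G27080 (7.99 and 6.78) and AT5G10695 (8.07 and 7.02) on array 1. The 19 members that rose from 24 to 96 h differed by at most 0.76.

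**Figure D5:**
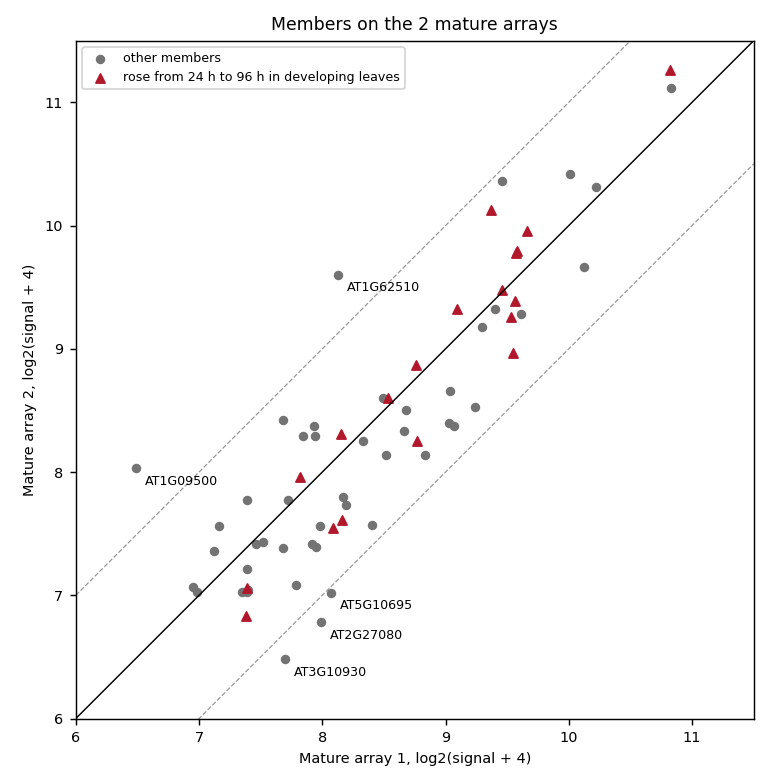
Each point is 1 of the 66 members, placed by its log2(signal + 4) level on mature array 1 (x axis) and mature array 2 (y axis), with red triangles for the 19 members that rose from 24 to 96 h, a solid line of equal levels and dashed lines at a difference of 1. The members that differ most, such as AT1G09500 and AT1G62510, lie farthest from the line of equal levels.

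With array 1 left out, the same limits gave 64 genes, of which 51 are among the 66 members. With array 2 left out they gave 76 genes, of which 59 are. Membership near the limits therefore rests on 1 or the other mature array.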

How the data were processed

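Values were the authors' deposited intensity per probe set, 1-colour Affymetrix signals on a linear scale made with MAS5, per the submitters' processing notes; version and settings are not given in the sources used here. Trimming 2% at each end, every deposited array's mean was 100.0, so arrays were already scaled alike. Levels are log2(signal + 4). Genes came from the platform annotation and, for names and order, RefSeq (TAIR10.1). The set was found by its stated rule, and its members and lists were chosen with earlier results of these data known.

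One limma 3.58.1 fit (R 4.3.3, trended variance) covered 26 arrays, 7 groups and 22746 probe sets without a filter, since a filter at the 40th percentile keeps 41 of 66 members. Adjusted p-values are Benjamini-Hochberg over all probe sets, two-sided, with a threshold of 0.05. The number of arrays limits the precision. On simulated data for 96 against 24 h (22746 probe sets), 192 of 200 changes of 2-fold were recovered, and 17 unchanged probe sets were called. The 200 were drawn from probe sets with a developing mean above the median of all. Within a developing time, the members' median SD was 0.26 to 0.36, against 0.17 to 0.23 for all probe sets. Recovery among the members was not simulated. Genes named in the text were the 20 largest margins, up to 6 rises and 6 falls per comparison, the 6 largest ranges, the 5 nearest each side of the limit, list members, neighbours and the 5 largest differences between mature arrays. A gene named by any of these may appear under every comparison. AT5G54940, and genes named for an array that stood apart, were chosen after their values were seen. Alternatives were other pseudocounts, the filter, quantile normalization, a replicate block, developing arrays alone, no trend, array weights, the actin ratio, other margins and leaving out each array. Leaving out 24 h arrays 1 and 4 together was chosen after seeing the data.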

Additional observations from a re-analysis of the deposited data

Results flagged for a closer look

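In each developing time, the highest and lowest of the 4 arrays of each member were compared with the other 3, and an array was listed when its gap to the nearest other array, as a share of the group's range, was over Dixon's critical value for 4 values. Chance lists about 1 in 20 such groups, and 22 of 396 were listed here, 2 of them on 96 h array 1. No reason was tested for any of them. Values are log2(signal + 4) levels.

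The widest gaps were those of AT3G13610, AT4G27280, AT3G28270 and AT1G68620. AT3G13610 was at 3.86 on 2 h array 3, with the others at 2.53 to 2.62, and at 4.79 on 4 h array 2, with the others at 2.39 to 2.54. It was also at 2.46 on 24 h array 2, against 2.56 to 2.57. AT4G27280 was at 7.16 on 2 h array 1, against 5.36 to 5.60. AT3G28270 was at 2.53 on 4 h array 3, against 4.11 to 4.27, and at 5.86 on 48 h array 4, against 6.52 to 6.59. AT1G68620 was at 3.96 on 2 h array 2, against 2.59 to 2.68.

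On array 1, AT5G61820 was at 8.12 at 96 h, against 7.11 to 7.23, and at 5.43 at 12 h, against 4.62 to 4.73. AT1G09500 was at 3.67 at 24 h, against 2.71 to 2.76, and AT1G21000 was low at 5.20 at 24 h, against 6.05 to 6.17. AT5G42250 was low at 4.51 at 4 h, against 5.40 to 5.52, AT5G39520 was at 4.58 at 48 h, against 3.98 to 4.08, and AR781 was low at 5.47 at 96 h, against 5.78 to 5.81.

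On array 3, AT4G09760 was at 3.94 at 12 h, against 4.56 to 4.66, and at 5.10 at 24 h, against 4.23 to 4.32. AT1G13990 was at 5.61 at 12 h, against 5.15 to 5.20. The remaining gaps were under 0.2. They were those of ZCF37 at 2.92 on 4 h array 2, AT2G42760 at 5.55 on 2 h array 2, AT4G00780 at 5.74 on 4 h array 3, AT5G54940 at 8.51 on 12 h array 3 and AT3G56200 at 6.57 on 24 h array 3.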

How the results depend on the processing

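The counts of members called stayed within 1.5 times their value under every alternative run, except for 2 comparisons. From 12 to 24 h, 8 members were called without 24 h arrays 1 and 4, against 13. From 24 to 48 h, 1 member was called, against 0 without a variance trend, 2 with array weights, and 0 to 2 when single arrays were left out. Leaving out single arrays gave 0 calls from 2 to 4 h, 11 to 17 from 2 to 12 h, 10 to 14 from 12 to 24 h, 17 to 23 from 24 to 96 h and 37 to 42 in the F-test. No called change of a named member changed direction in any alternative run that tested it. The number of members was 135 with a margin of 1.5 and 31 with 2.5, 68 and 47 with pseudocounts of 1 and 16 (64 and 46 of them among the 66), and 61 to 76 when single arrays were left out. With the replicate number as a block, 0 members were called from 2 to 4 h, 16 from 2 to 12 h, 13 from 12 to 24 h, 1 from 24 to 48 h, 22 from 24 to 96 h and 40 in the F-test. Of 60 same-numbered pairs of arrays, 16 had deviations correlated above 0.1, with a median of 0.037 and a highest of 0.322. For pairs of other numbers the median was -0.014 and the highest 0.173. Of 24 developing arrays, 13 correlated best with their own of the 4 numbers. Whether the numbers pair the samples was not tested, and the main fit did not use them. With 2 mature arrays, the spread in mature leaves is known poorly, and levels of members near the floor depend on the pseudocount.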
